A study of Cucumis sativus and Manihot esculenta and Brachypodium distachyon with 34 samples.

Results

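Stretches of the genome with CHH methylation (mCHH regions) whose small RNAs were mostly 21 nt long were followed here in the leaves of 6 species. A region was chosen by its own measured reads: of the regions of at least 50 bp and under 2000 bp with at least 20 small RNA reads of 20, 21, 22, 24, 25 or 26 nt, those with more than 50% of these reads at 21 nt were selected. They numbered 5750 of the 248751 regions under the same bounds, and the files held 809247 regions in all. *P. hallii* had 2319 of them, *E. salsugineum* 1286, *R. communis* 1263, *M. truncatula* 693, *C. sativus* 114 and *E. grandis* 75. The remaining regions under the same bounds are called other regions below.

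The study sequenced methylomes of many flowering plants and, in some of them, leaf small RNAs. No treatment is named for the plants used here, which gave 1 small RNA library per species: cucumber *C. sativus* (GY14), the eucalypt *E. grandis* (BRAZUS1), the halophyte crucifer *E. salsugineum* (Shandong), castor bean *R. communis* (no accession named), the grass *P. hallii* (FIL2) and the legume *M. truncatula* (F83). For *M. truncatula* the study lists another accession, R108, for the methylome, so its small RNAs and mCHH levels may come from different plant lines. All regions of a species carry a level from MethylC-seq, in which bisulfite converts unmethylated cytosines, and the level of a region, given here in %, says how much of its CHH sequence was read as methylated. The files give positions without gene names, so the leaf label could not be checked against marker genes.

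In plants, 21 nt small RNAs are mainly microRNAs, cut from hairpin transcripts by DCL1, and secondary siRNAs such as trans-acting siRNAs, cut from double-stranded RNA by DCL4. Both are best known for guiding the cleavage or repression of messenger RNAs. The 24 nt siRNAs, made by DCL3, guide the methyltransferase DRM2 to DNA in RNA-directed DNA methylation (RdDM), the pathway usually associated with mCHH, while CMT2 methylates CHH sites in heterochromatin without small RNAs. A 21 nt dominated mCHH region is therefore one in which the most frequent small RNAs are not of the length typical of RdDM. Which class the 21 nt reads of a region belong to was not tested, and no sequence of the regions or their reads was used here.

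The number of mapped hits differed widely between the libraries. A hit counts a read at each place it matches, so hits do not rank the libraries by sequencing depth. By the mapped reads that the study lists, *C. sativus* was slightly above *M. truncatula*, although its hits were far fewer. The small RNA values were deposited as fractions of all mapped hits, and 100% of them were whole multiples (within 0.01) of the smallest, so reads could be recovered. The inverse of the smallest fraction, taken here as the mapped hits of the library, was 160311702 in *P. hallii*, 132271615 in *E. salsugineum*, 73438007 in *M. truncatula*, 27088740 in *R. communis*, 17979983 in *C. sativus* and 2614647 in *E. grandis*. For *R. communis* the study lists another number of mapped hits, the same as it lists for *B. distachyon*. Of the *E. grandis* regions, 595 of 103724 were under the bounds of length and reads, against 60073 of 96175 in *E. salsugineum*. No removal of small RNA reads that match several places is stated, so reads here are hits, and regions that share a sequence may share their reads. The files do not give the depth behind the methylation level of a single region. There were no replicates, so every difference between regions within a species has no replicate error, and species were the units of the tests.

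The share of regions dominated by 21 nt reads ranged over more than an order of magnitude. It was 0.382% of the regions under the same bounds in *C. sativus* (95% Wilson interval 0.318 to 0.459%), 1.46% in *M. truncatula* (1.36 to 1.58%), 2.14% in *E. salsugineum* (2.03 to 2.26%) and 2.27% in *P. hallii* (2.18 to 2.36%). It was higher in *E. grandis* (12.6%, 10.2 to 15.5%) and *R. communis* (14.4%, 13.7 to 15.1%), the species in which the smallest part of all regions met the bounds (0.574% and 6.44%). The intervals cover counting error only, and the shares come from the values that chose the regions, so they are given without a test. At the border, the nearest regions of at least 100 reads on both sides had close to 50% of their reads at 21 nt, except in *E. grandis*. In *M. truncatula*, of the regions of at least 100 reads, the one just inside had 497 of 985 reads at 21 nt and an mCHH level of 34.3%, and the one just outside 160 of 320 and 15.3%. In *P. hallii* the pair had 161 of 321 reads at 5.605% mCHH and 667 of 1334 at 8.18%. In *E. grandis* the nearest regions had 94 of 173 reads and 125 of 586 reads at 21 nt.

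The part of the small RNA reads of mCHH regions that lay in 21 nt dominated regions follows in part from the rule, which chose regions by these reads, and is a description. They held 61.0% of the 21 nt reads of all regions of the file in *E. grandis*, 51.9% in *M. truncatula*, 43.2% in *E. salsugineum*, 40.01% in *R. communis*, 15.8% in *C. sativus* and 13.3% in *P. hallii*. Of the 24 nt reads they held 0.623% in *E. grandis*, 0.318% in *M. truncatula*, 0.469% in *E. salsugineum*, 4.85% in *R. communis*, 1.09% in *C. sativus* and 0.856% in *P. hallii*. The 22 nt reads, the length that can trigger secondary siRNAs, lay closer to the 24 nt reads, from 0.331% of them in *M. truncatula* to 8.35% in *R. communis*. Of the 20 nt reads, 67.3% lay in 21 nt dominated regions in *E. grandis*, but 8.48% without the region with most 21 nt reads. In the other species it was between 1.23% in *C. sativus* and 5.49% in *R. communis*.

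Most 21 nt reads of the selected regions lay in a handful of regions in 4 of the 6 species. They are hits, so regions with nearly the same read numbers, as in *E. salsugineum* below, may count the same reads more than once. A single region held 66.4% of the 21 nt reads of the selected regions in *E. grandis* and 57.4% in *M. truncatula*, and the top 3 held 78.6% in *C. sativus* and 79.7% in *E. salsugineum*. *R. communis* and *P. hallii* differed, as their top 3 regions held 12.7% and 8.21%, and 76 and 61 regions were needed to reach 50% of the reads. The median 21 nt dominated region was small by comparison, with 254 reads of 21 nt in *E. salsugineum* and 102 in *P. hallii*, and with 57 in *C. sativus*, 69 in *M. truncatula*, 36 in *R. communis* and 25 in *E. grandis*.

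**Figure D1:**
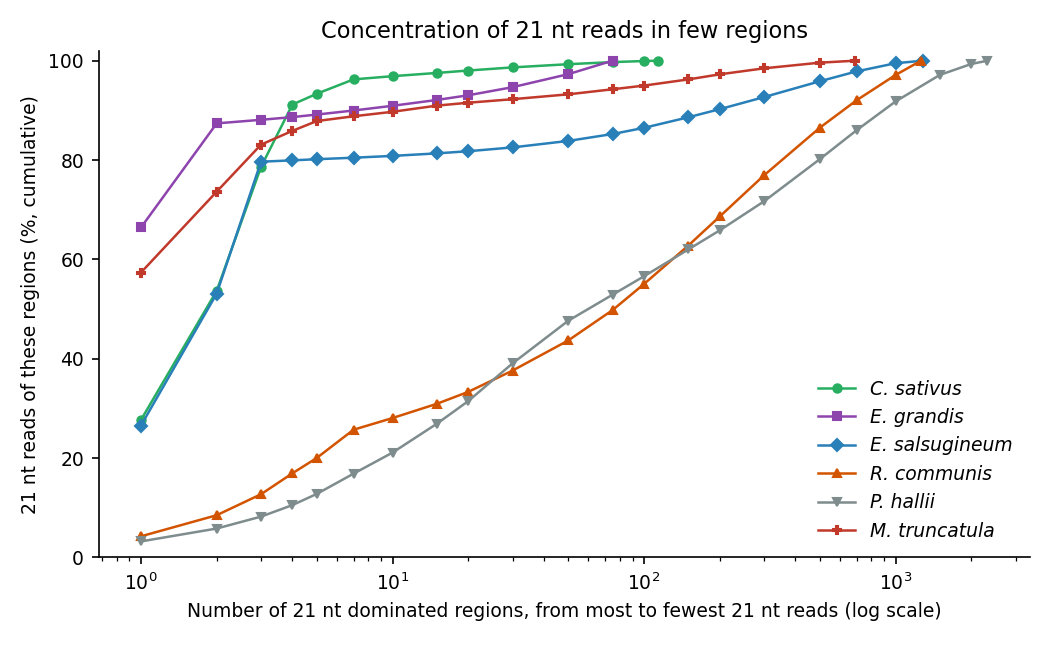
Cumulative share of the 21 nt reads of all 21 nt dominated regions of a species (y axis, %) against the number of regions taken from the one with most 21 nt reads downwards (x axis, log scale). The curves of *C. sativus*, *E. grandis*, *E. salsugineum* and *M. truncatula* are at 78.6% or more at 3 regions, while those of *R. communis* and *P. hallii* are at 12.7% and 8.21% there.

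The regions with most 21 nt reads were examined one by one, since they carry the totals. In *E. salsugineum*, the region on scaffold_6 from 1538971 to 1539364 had 765133 reads of 21 nt, with 2405 of 20 nt and 56 of 24 nt, and an mCHH level of 9.46%. The region on scaffold_2 from 2892586 to 2892672 had 765121, with 2407 and 25, at 9.39%. A region 1747 bp away on the same scaffold, from 2890582 to 2890839, had the highest 21 nt share of the species among regions of at least 100 reads (99.7%), with 764930 reads of 21 nt, 2405 of 20 nt and 9 of 24 nt, at 13.6%. The 3 regions thus had almost the same read numbers at 20 and 21 nt, and all 3 were below the median mCHH level of other regions of this species, 14.4%. The next region of the species had 7775 reads of 21 nt.

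In *M. truncatula* the leading regions were short. The region on chromosome 1 from 33330096 to 33330188 (92 bp) had 557538 reads of 21 nt, 5742 of 20 nt and 33 of 24 nt, and its mCHH level was 36.5%. The region on chromosome 3 from 44456237 to 44456361 (124 bp) had 158261 reads of 21 nt, 1931 of 20 nt and 28 of 24 nt, at 19.9%. Their 21 nt shares were 98.96% and 98.8%, and one lay above and the other below the median of other regions, 32.2%. The highest 21 nt share belonged to a region of 73 bp on chromosome 4 from 17270834 to 17270907, with 741 of 746 reads at 21 nt, no 24 nt read and an mCHH level of 55.2%. High mCHH was thus measured in a single region without 24 nt reads, that of 73 bp. The 33 reads of 24 nt in the region of 92 bp were few only beside its 21 nt reads. Per kb they were above the median of other regions, 291 reads of 24 nt per kb.

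In *C. sativus* the leading regions were longer and more mixed. The region from 176176882 to 176177461 had 82283 reads of 21 nt with 16107 of 20 nt, 5171 of 22 nt and 1803 of 24 nt, at 41.7% mCHH. The region from 196170170 to 196170870 had 77237 reads of 21 nt with 8360 of 20 nt, 6486 of 22 nt and 12397 of 24 nt, at 45.9%. Both were well above the median of all 21 nt dominated regions of cucumber, 13.3%. The region from 24168119 to 24168675 had read numbers close to those of the region from 196170170. It had 74119 reads of 21 nt with 6199 of 20 nt, 6870 of 22 nt and 12294 of 24 nt, at 35.3%. Whether these regions share reads was not tested. A region of 125 bp from 196268553 to 196268678 had the highest 21 nt share, 93.7% of 39847 reads, with 193 reads of 24 nt and a level of 32.1%. All regions of *C. sativus*, *R. communis* and *P. hallii* lie on a sequence named 1 in the files, whose positions reach 203357482, 352297457 and 557567878, so these positions do not name a chromosome.

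In *E. grandis*, the region on scaffold_2 from 22370700 to 22371037 had 12201 reads of 21 nt, 4365 of 20 nt and 200 of 24 nt at 2.74% mCHH, and the region on scaffold_8 from 40823543 to 40823794 had 3849 reads of 21 nt, 23 of 20 nt and none of another length at 12.0%. The next region had 132 reads of 21 nt. In *R. communis*, regions from 167354610 to 167355027 and from 46112490 to 46113190 had 6150 and 6136 reads of 21 nt, 219 each of 20 nt, 2700 and 2701 of 22 nt, and 1199 and 1202 of 24 nt, with mCHH levels of 12.3% and 22.7%. Their read numbers differed by a few hits at each length although they lie far apart in the file, and both levels were below the median of 21 nt dominated regions of castor bean, 30.4%. In *P. hallii*, the region from 227699219 to 227699956 had 26730 reads of 21 nt and 1109 of 24 nt at 8.34% mCHH, and the region from 78976037 to 78977068 had 21532 and 2514 at 6.05%, beside a median of 6.33% over the 21 nt dominated regions of the species.

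Regions with exactly the same read number at every length were counted, since they may share their reads. Of the 21 nt dominated regions, 46 of 75 shared all read numbers with another in *E. grandis*, the largest set being 8 regions of 20 reads that were all 21 nt. It was 73 of 1263 in *R. communis*, 30 of 2319 in *P. hallii*, 10 of 693 in *M. truncatula*, and 2 each in *C. sativus* and *E. salsugineum*. Among regions of at least 100 reads, 6 of 1447 in *P. hallii* were alike and none in the other species. Regions that share most but not all reads, such as those of *E. salsugineum* above, are not in these counts.

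The reads that accompanied the 21 nt reads differed between species. The 24 nt reads were the most frequent other length in 1234 of 1286 selected regions in *E. salsugineum*, 963 of 1263 in *R. communis*, 1411 of 2319 in *P. hallii* and 476 of 693 in *M. truncatula*. The 20 nt reads were instead the most frequent in 70 of 114 regions in *C. sativus*. In *E. grandis*, 49 of 75 regions had no read of another length, and 20 nt led in 22 of the remaining 26. These compositions come from the libraries that chose the regions and have no test.

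**Figure D2:**
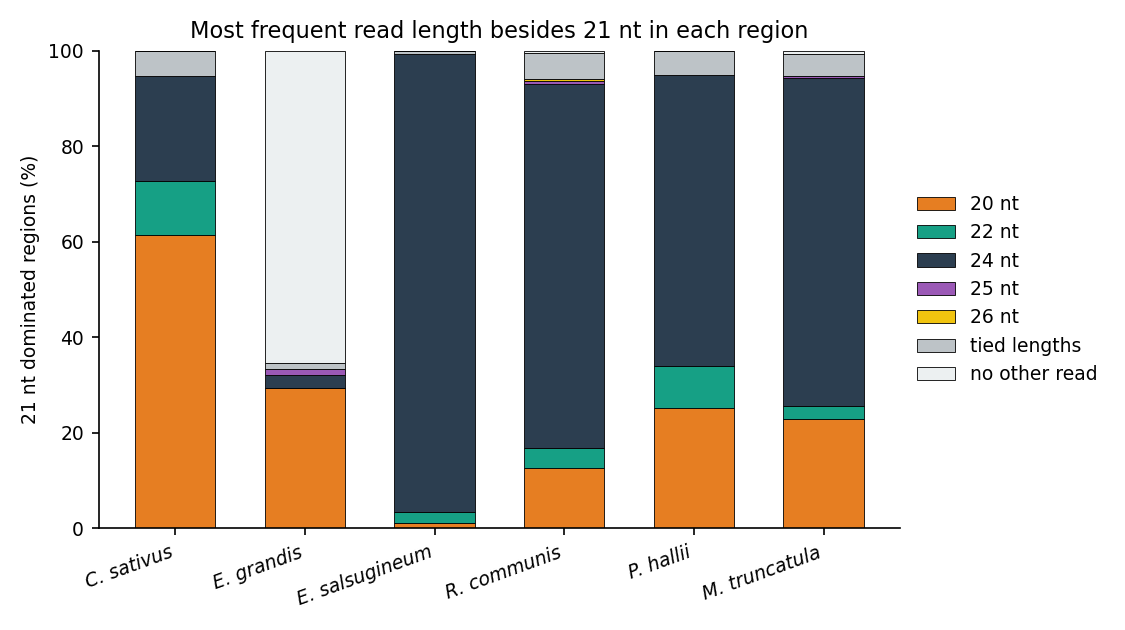
Share of the 21 nt dominated regions of each species (y axis, %) by the read length that was most frequent after 21 nt (colours; tied lengths and regions with 21 nt reads alone are shown apart). The 24 nt colour fills most of the bar in *E. salsugineum* (1234 of 1286 regions), and the 20 nt colour most of that of *C. sativus* (70 of 114).

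Per kb of region, 24 nt reads were fewer by the median in 21 nt dominated regions than in other regions, but in most species they were not absent. The lower number follows in part from the rule, which leaves 24 nt reads a minority in the selected regions. Most other regions, by contrast, had mostly 24 nt reads. The comparison is therefore a description without a test. The median was 26.2 reads of 24 nt per kb in 21 nt dominated regions against 113 in other regions in *C. sativus*, 197 against 267 in *E. salsugineum*, and 37.4 against 53.2 in *R. communis*. It was 98.5 against 143 in *P. hallii*, and 63.5 against 291 in *M. truncatula*. In *E. grandis* 66 of 75 selected regions had no 24 nt read, so that the median was 0 against 86.0. Regions without any 24 nt read were 47 of 693 in *M. truncatula*, 60 of 1263 in *R. communis*, 6 of 114 in *C. sativus*, 17 of 2319 in *P. hallii* and 2 of 1286 in *E. salsugineum*. The 21 nt reads per kb were higher in the selected regions, as the rule asks, with medians of 740 against 17.0 in *E. salsugineum* and 372 against 19.4 in *M. truncatula*.

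The balance of 20 and 22 nt reads was compared too, as a description without a test. The 20 nt reads made up 64.3% of the pooled 20 and 22 nt reads of 21 nt dominated regions in *C. sativus*, against 16.4% in regions with more than 50% of 24 nt reads. In *E. grandis* it was 95.6% against 16.5%, in *M. truncatula* 82.0% against 21.3%, and in *P. hallii* 56.0% against 13.2%. In *R. communis* it was 34.8% against 18.4% and in *E. salsugineum* 31.1% against 9.42%. The 20 nt share was thus higher than in 24 nt dominated regions in all 6 species. Against all other regions the pooled share was not higher in every species. That of other regions was 65.4% in *C. sativus* and 46.4% in *R. communis*, above the 64.3% and 34.8% of the selected regions. By the median over regions, however, the 20 nt share was higher in selected regions there too. It was 63.4% against 16.7% in *C. sativus* and 50% against 20% in *R. communis*.

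The mCHH level was not used to choose the regions. Its medians were lower in 21 nt dominated regions in 3 species and higher in the other 3. In *C. sativus* the median level was 13.3% in 21 nt dominated regions (middle 50% of regions from 9.65 to 16.6%) against 26.5% in other regions (16.9 to 39.2%). In *M. truncatula* it was 22.7% (14.4 to 40.6%) against 32.2% (20.2 to 47.7%), and in *E. grandis* 6.68% (3.74 to 10.03%) against 7.78% (4.29 to 14.3%). The cucumber regions had the least overlap, since the upper quartile of the 21 nt dominated regions was below the lower quartile of the others. The study reports unusual mCHH in many highly expressed cucumber genes, which a second cucumber sample did not show. Which cucumber methylome gave the levels used here is not known, and the difference was not measured in another.

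In the remaining species the order was the other way round. The median was 15.4% in 21 nt dominated regions (13.2 to 17.9%) against 14.4% in other regions (11.1 to 18.5%) in *E. salsugineum*. It was 30.4% (23.5 to 38.2%) against 27.5% (21.3 to 34.6%) in *R. communis*, and 6.33% (4.45 to 9.88%) against 5.97% (3.92 to 12.3%) in *P. hallii*. These distributions overlapped over most of their range. The differences, 21 nt dominated minus other regions, were -13.2 percentage points in *C. sativus*, -9.53 in *M. truncatula*, -1.10 in *E. grandis*, 0.362 in *P. hallii*, 0.978 in *E. salsugineum* and 2.91 in *R. communis*. Over the 6 species they had no common direction (exact two-sided sign test, p = 1, adjusted p = 1 by Benjamini-Hochberg over 3 tests, smallest possible p 0.031). The direction in *P. hallii* turned with the setting: the difference was -1.49 by means, -0.404 among regions of at least 100 reads and -0.0668 against 24 nt dominated regions. That of *E. salsugineum* was -0.412 by means.

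**Figure D3:**
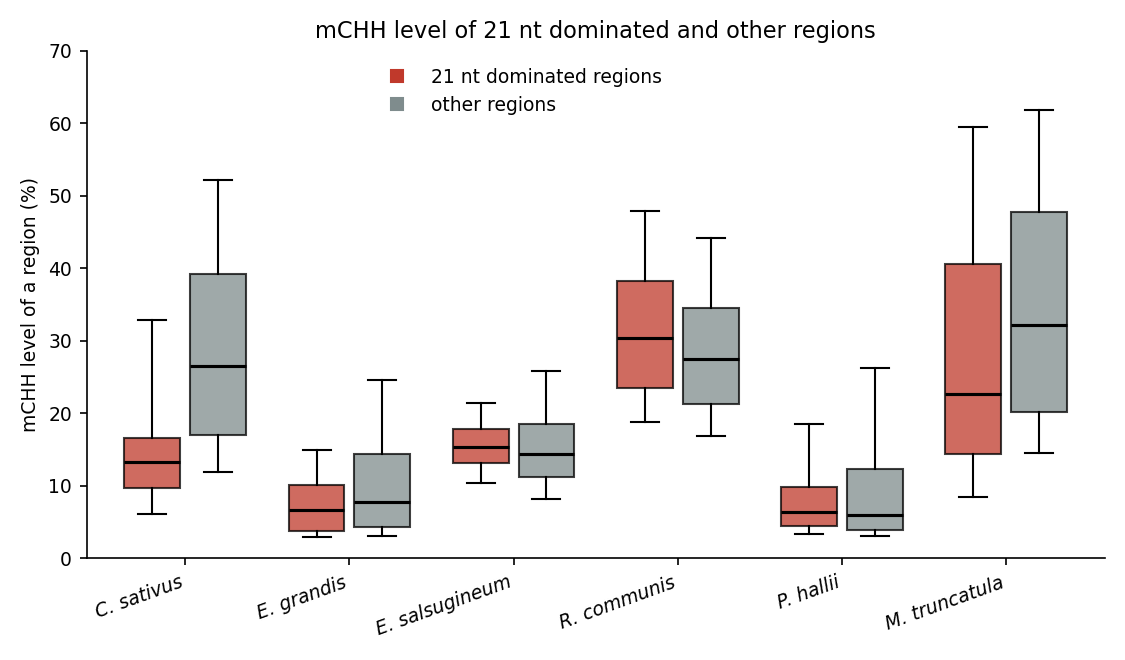
mCHH level of regions (y axis, %) in 21 nt dominated regions (red) and other regions (grey) of each species; boxes span the middle 50% of regions with the median as a line, and whiskers reach the 10th and 90th percentiles. The red box lies below the grey one in *C. sativus* (medians 13.3% and 26.5%), and the boxes overlap in the other 5 species.

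The upper end of the methylation range was less populated by 21 nt dominated regions in 5 of 6 species. Regions above 25% mCHH were 14.9% of the 21 nt dominated regions against 53.9% of other regions in *C. sativus*, 43.1% against 64.4% in *M. truncatula*, and 2.67% against 9.42% in *E. grandis*. They were 3.42% against 10.99% in *E. salsugineum* and 6.73% against 10.7% in *P. hallii*. In *R. communis* alone they were more frequent, at 68.9% against 60.8%. In *E. salsugineum* the selected regions were concentrated between 15 and 25%, where 51.6% of them lay against 34.1% of other regions. At the lower end, regions below 5% mCHH were 5 of 114 against 155 of 29715 in *C. sativus*, 19 of 693 against 44 of 46674 in *M. truncatula*, and 7 of 1263 against 1 of 7516 in *R. communis*. They were 27 of 75 against 168 of 520 in *E. grandis*. In *P. hallii* they were less frequent, at 32.9% against 40.2%, and so they were in *E. salsugineum*, with 17 of 1286 against 1213 of 58787. These shares are descriptions of the same levels as the medians, with no test of their own.

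With positions divided into 10 blocks of equal region number in each species, the differences in the species with the largest gaps kept their direction along the genome. The level was lower in 21 nt dominated regions in 10 of 10 blocks in *C. sativus* (differences from -19.97 to -8.00 percentage points) and in 10 of 10 in *M. truncatula* (-17.1 to -3.52). It was higher in 10 of 10 blocks in *E. salsugineum* (0.102 to 1.95) and in *R. communis* (0.830 to 5.14), and in 8 of 10 in *P. hallii* (-1.20 to 1.13). In *E. grandis*, with 3 to 12 selected regions per block, it was lower in 6 and higher in 4. Blocks of 1 library are not replicates, so these counts describe the spread along the sequence. By chromosome, the median was lower in 21 nt dominated regions on all 8 chromosomes of *M. truncatula*, by the least on chromosome 2 (31.4% against 34.0%) and with 15.8% against 28.9% on chromosome 6. In *E. salsugineum* it was higher on 21 and lower on 5 of the 26 scaffolds that held at least 5 such regions, or at least 1 among 100 or more regions under the same bounds, for example on scaffold_5 (15.6% against 19.05%, 11 selected regions). In *E. grandis* it was higher on 3 and lower on 6 of 9 scaffolds chosen in the same way.

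The lower levels of cucumber and *M. truncatula* were measured within every length class. In *C. sativus* the medians were 14.9% in 21 nt dominated against 36.3% in other regions from 100 to under 200 bp, 11.8% against 26.1% from 200 to under 500 bp, and 13.3% against 20.2% from 500 to under 1000 bp. In *M. truncatula* they were 27.8% against 37.2%, 18.2% against 28.5% and 14.7% against 20.4% in the same classes. In both species the shortest class, under 100 bp, had the highest levels (28.3% against 40% in *C. sativus*, n = 7 selected regions, and 37.9% against 46.1% in *M. truncatula*), and the regions of 1000 bp and more were the closest to each other (11.5% against 15.3%, and 13.3% against 16.7%). In *R. communis* the selected regions were higher in 4 of 5 classes, and lower from 500 to under 1000 bp (26.2% against 26.9%).

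Among the selected regions, the level was lower at higher shares of 21 nt reads in *M. truncatula*. It was 28.1% in 205 regions with 50 to 60% of reads at 21 nt, 24.9% in 225 with 60 to 75%, 18.6% in 144 with 75 to 90%, and 12.8% in 119 above 90%. The 24 nt share was 32.1%, 23.3%, 8.45% and 0.832% of the reads by the median. It must fall over these classes, since a higher 21 nt share leaves less for other lengths. Median region lengths rose too, from 179 bp in the lowest class to 213 bp in the highest. The part of length in the levels was not tested. *R. communis* had a smaller mCHH gradient of the same direction as *M. truncatula*, with 31.4%, 31.6%, 28.3% and 26.1%. The levels of *E. salsugineum* (15.1%, 15.4%, 15.6% and 14.6%) and *P. hallii* (6.09%, 6.53%, 6.54% and 6.11%) stayed within a narrow band. Their median 24 nt shares in the highest class, which the cut keeps low, were 4.14% and 3.03%. In *C. sativus* 67 of 114 regions were in the lowest class, and in *E. grandis* 58 of 75 in the highest, so that no gradient can be read there. The classes are cut on a value the rule used, and they have no test.

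**Figure D4:**
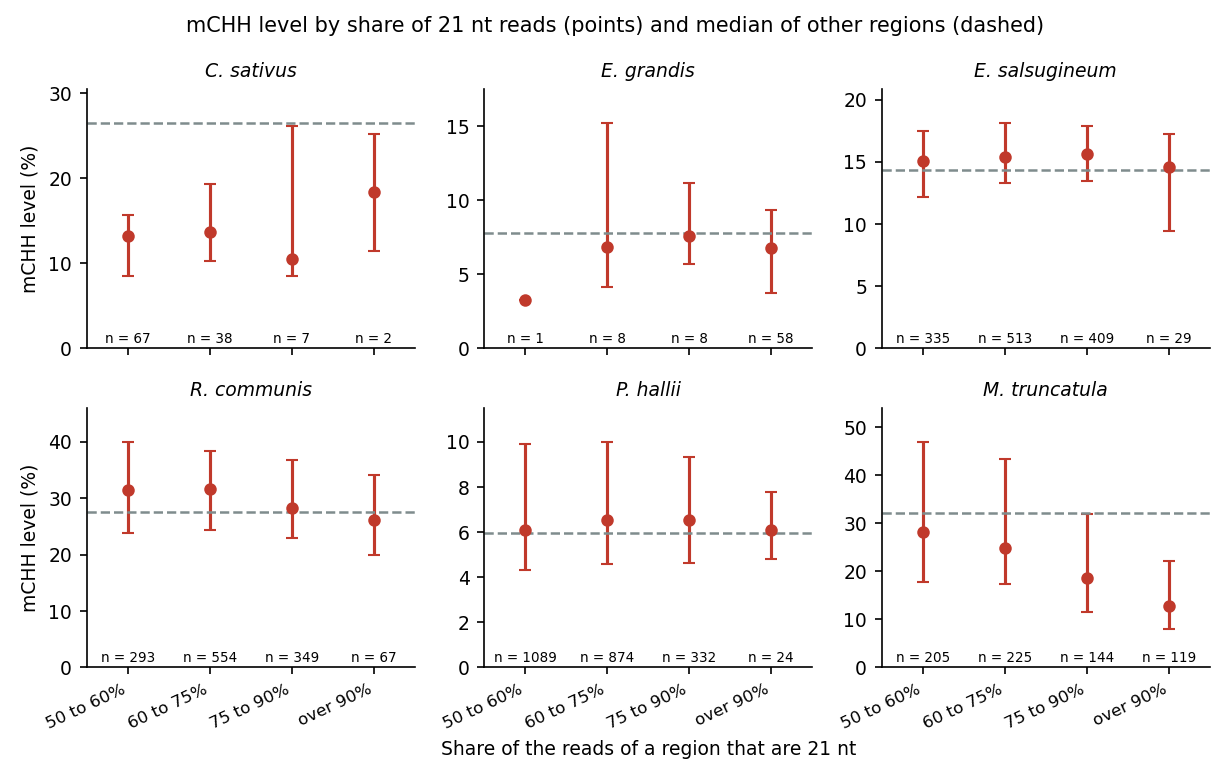
mCHH level of 21 nt dominated regions (y axis, %) by the share of their reads that are 21 nt (x axis), in each species; points are medians, bars the middle 50% of regions, n the number of regions, and the dashed line the median of other regions. In *M. truncatula* the points descend through 28.1%, 24.9%, 18.6% and 12.8%, further below the dashed line at 32.2%, and in *E. salsugineum* they stay between 14.6% and 15.6%.

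The regions with most reads in total, whatever their length, were compared in a split chosen after the values were seen. In this class the selected regions were also longer by the median in each species compared. Median lengths were, for example, 617 against 399 bp in *P. hallii* and 920.5 against 576 bp in *E. salsugineum*. The part of length in the levels below was not tested. Among regions of at least 1000 reads, the median level was 15.1% in 18 selected regions against 41.9% in 1489 other regions in *M. truncatula*, 7.39% in 175 against 19.8% in 5637 in *P. hallii*, and 23.4% in 10 against 30.8% in 547 in *C. sativus*. The levels were close in *R. communis* (23.1% in 14 against 24.9% in 95) and *E. salsugineum* (15.3% in 238 against 15.4% in 6793). In *P. hallii* the other regions showed a steep difference by reads, with 5.43% at 20 to 99 reads and 6.51% from 100 to under 1000, while the selected regions had 5.78% and 6.55%. The selected regions of *P. hallii* thus stayed near the same level over the 3 classes of reads, and the other regions did not.

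The highest levels among selected regions of at least 100 reads were reached with some 24 nt reads in most cases. They were 90.1% in *M. truncatula*, in a region of 103 bp on scaffold0756 from 3517 to 3620 with 102 of 145 reads at 21 nt and 31 at 24 nt, and 80.7% in *R. communis*, in a region of 78 bp from 56736949 to 56737027 with 105 of 187 reads at 21 nt, 78 at 20 nt and 4 at 24 nt. In *P. hallii* the level reached 73.1% in 171 bp from 366698549 to 366698720, with 191 of 326 reads at 21 nt and 76 at 24 nt. It reached 60.8% in *C. sativus*, in 118 bp from 180008516 to 180008634 with 4098 of 4886 reads at 21 nt and 47 at 24 nt, and 47.0% in *E. salsugineum*, in 65 bp on scaffold_10 from 5142888 to 5142953 with 548 of 812 at 21 nt and 154 at 24 nt. In *E. grandis* it was the region of scaffold_8 above, at 12.0%. Apart from *E. grandis*, these were short regions, between 65 and 171 bp.

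The 21 nt dominated regions were shorter than other regions in 5 of 6 species by the median. The test over species did not pass and, with 6 species, had little room to do so. Median lengths in bp were 289 in 21 nt dominated regions against 508 in other regions of *R. communis*, 241 against 334 in *P. hallii*, 364.5 against 422 in *E. salsugineum*, 295 against 329 in *E. grandis*, and 192 against 197 in *M. truncatula*. In *C. sativus* the selected regions were longer, with a median of 416.5 against 305. The exact sign test (two-sided, 6 species) gave p = 0.219 and an adjusted p = 0.656 by Benjamini-Hochberg. The regions were shorter in 10 of 10 blocks in *R. communis* and *P. hallii*, 9 of 10 in *E. salsugineum*, 6 of 10 in *E. grandis* and *M. truncatula*, and 1 of 10 in *C. sativus*. The small differences of *M. truncatula* and *E. grandis* turned to the opposite sign in some settings: 7 bp with a 21 nt share above 66.7% in *M. truncatula*, and 18 bp with 1 region kept per set of equal read numbers in *E. grandis*. Regions with more than 50% of 22 nt reads were short too. Their median lengths were 374 bp in *R. communis*, 246 in *P. hallii*, 245 in *E. salsugineum*, 232 in *C. sativus* and 122 in *M. truncatula*. *E. grandis* had 1 such region, of 1141 bp.

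The distance to the nearest other mCHH region of the file, whatever its reads, had no common direction either. The median gap in bp was 235.5 for 21 nt dominated regions against 439 for other regions in *C. sativus*, 193 against 219 in *E. salsugineum*, and 470.5 against 474 in *M. truncatula*. It was 384 against 347 in *P. hallii*, 275 against 235 in *R. communis*, and 671 against 646 in *E. grandis* (exact sign test, two-sided, 6 species, p = 1, adjusted p = 1). By the medians, the cucumber regions were longer, less methylated and nearer to the next region than other regions of the same file, the only species with that combination.

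21 nt dominated regions lay beside a 21 nt dominated region more often than other regions did. Of the next regions within 2000 bp that were under the same bounds, those that were 21 nt dominated too made up 49.6% (1052 of 2121) beside a 21 nt dominated region against 1.47% (1069 of 72569) beside another region in *E. salsugineum*, and 65.2% (562 of 862) against 12.8% (300 of 2340) in *R. communis*. It was 27.2% (588 of 2160) against 2.04% (1572 of 77040) in *P. hallii*, 28.1% (96 of 342) against 1.03% (246 of 23944) in *M. truncatula*, and 8.51% (8 of 94) against 0.450% (86 of 19102) in *C. sativus*. In *E. grandis* both of the 2 next regions were 21 nt dominated, against 0 of 24 beside another region, but they are the 2 regions of 1 pair. Each region was followed on both sides, so a pair of neighbouring 21 nt dominated regions was counted from each end. Regions with more than 50% of 24 nt reads also lay beside their own kind more often than other regions did, in each species. It was 75.3% against 25.3% in *R. communis*, 96.5% against 54.6% in *E. salsugineum*, and 95.2% against 86.0% in *M. truncatula*. These shares use the reads of the rule, so they are a description without a test, and next regions that share reads are not independent.

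**Figure D5:**
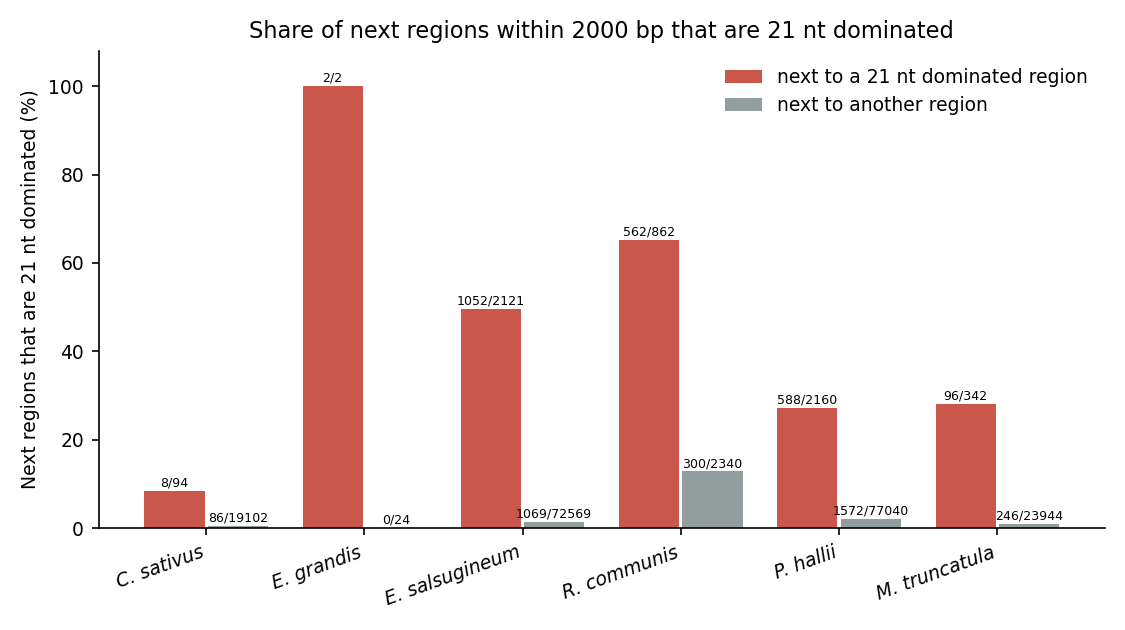
Share of the next regions within 2000 bp that were 21 nt dominated (y axis, %), beside a 21 nt dominated region (red) and beside another region (grey), with the counts over the bars. The red bar is the higher one in each species. Apart from *E. grandis*, it runs from 8.51% against 0.450% in *C. sativus* to 65.2% against 12.8% in *R. communis*. In *E. grandis* the 2 next regions are a single pair counted from both ends.

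Many selected regions formed runs, that is, neighbours at most 2000 bp apart with no other region between them. Such runs held 63.5% of the selected regions in *E. salsugineum* (817 of 1286), 36.7% in *R. communis*, and 22.9% in *P. hallii*, whereas the share was 12.0% in *M. truncatula*, 7.02% in *C. sativus* and 2.67% in *E. grandis*. The longest was in *E. salsugineum*, with 12 regions on scaffold_14 from 8343776 to 8353118, which had 145 to 1524 reads of 21 nt each, 8246 of 21 nt against 2117 of 24 nt together, and mCHH levels from 10.9 to 23.9%. In *R. communis* 8 regions from 162627750 to 162634392 held 1516 reads of 21 nt and 491 of 24 nt, at 39.2 to 55.4% mCHH. The level of every region of that run was above the median of 21 nt dominated regions of its species.

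The longest runs of the other species were of 8, 7 and 2 regions. In *P. hallii* 8 regions from 535201307 to 535206312 held 7825 reads of 21 nt, 985 of 20 nt and 937 of 24 nt, at 6.87 to 17.2% mCHH. In *M. truncatula* 7 regions on chromosome 3 from 21225868 to 21231308 held 1144 reads of 21 nt and 315 of 24 nt, at 19.2 to 36.1%. In *C. sativus*, where 4 pairs tied as the longest, the pair from 6672050 to 6674447 held 775 reads of 21 nt, 358 of 20 nt and 41 of 24 nt, at 9.60 and 13.9%, and in *E. grandis* the pair on scaffold_2 from 40323106 to 40324613 held 57 reads of 21 nt and 4 of 24 nt, at 16.01 and 17.8%. A group found after the values were seen lay on chromosome 7 of *M. truncatula* between 23550109 and 23625528, where 4 regions had 2744 to 2977 reads of 21 nt, 260 to 332 of 20 nt and at most 36 of 24 nt, with levels between 5.87 and 21.95%.

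Selected regions were spread over the genome unevenly. In *E. salsugineum*, 7.06% of the regions under the same bounds on scaffold_21 were 21 nt dominated (72 of 1020), against 3.94% on scaffold_6 (137 of 3473), 0.995% on scaffold_2 (33 of 3315) and 0.443% on scaffold_13 (3 of 677). On the scaffold_21 regions the level was 16.5% in 21 nt dominated against 14.1% in other regions. In *M. truncatula* the share ran from 0.958% on chromosome 1 (58 of 6052) to 2.35% on chromosome 6 (91 of 3869). Over the 10 blocks of a species the share ranged from 10.8 to 20.8% in *R. communis* and from 5.08 to 20% in *E. grandis*, whereas it was 2.01 to 3.13% in *P. hallii*, 1.55 to 2.71% in *E. salsugineum*, 1.01 to 2.03% in *M. truncatula* and 0.134 to 0.738% in *C. sativus*. In each species all 10 blocks held at least 1 such region.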

How the data were processed

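Small RNAs were sequenced from leaves of 6 species (TruSeq Small RNA kit), with 1 library each. The authors trimmed and cleaned the reads with the UEA toolkit, aligned them without mismatches with PatMan and overlapped them with mCHH regions with BedTools. The deposited values are the fraction of all mapped hits per read length, with an empty cell where there was no read, and the deposited mCHH level is a fraction between 0 and 1, shown here as a percentage. To make the regions, the authors merged nearby windows with called CHH sites and kept regions with at least 5 methylated cytosines. MethylC-seq reads that matched several places were removed, and no such step is stated for small RNAs. Tool versions are not given in the sources used here. The study aligned reads to the genome of each species, none of which was used here.

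Reads were obtained as each fraction over the smallest one in its file, with empty cells as 0. Medians of 21 nt dominated and other regions were compared within each species, and an exact two-sided sign test was run over the species, adjusted by Benjamini-Hochberg over 3 tests (mCHH level, length, gap). The functions were tested on simulated data. Wilson intervals are at the 95% level. The 10 blocks per species follow position, as the files are sorted as text. SciPy 1.17.1, NumPy 2.4.6, Matplotlib 3.10.9 and pandas 2.3.3 were run under Python 3.11.15.

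The regions named by rule are, per species, the 2 with the most 21 nt reads, those with the highest 21 nt share and the highest mCHH level among regions of at least 100 reads, the longest run, and the regions on each side of 50%. Others were picked after their values were seen. The regions and rules were chosen with earlier results of these data known. Length is end minus start, coordinates are those of the files, and whether they count from 0 or 1 is not stated. FPKM values deposited for genes of other samples were not used, as they have no positions, and the remaining species and methylomes were not analysed here. The 9 alternatives changed the 21 nt share, the reads, the length bounds, the mean, the comparison group, the regions with most 21 nt reads and regions with equal read numbers.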

Additional observations from a re-analysis of the deposited data

Results flagged for a closer look

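Differences between 21 nt dominated and other regions had opposite signs in different species, and whether the species differ was not tested, as each had 1 library. For the median mCHH level, the lowest difference was -13.2 percentage points in *C. sativus* and the highest 2.91 in *R. communis*. For the median length, it was -219 bp in *R. communis* and 111.5 bp in *C. sativus*. For the median gap to the nearest region, it was -203.5 bp in *C. sativus* and 40 bp in *R. communis*. *C. sativus* and *R. communis* were thus the 2 ends for each of the 3 measures. They were also the ends for the share of regions that were 21 nt dominated, 0.382% and 14.4%.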

How the results depend on the processing

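No test over species passed the threshold in the main setting or under any of the 9 alternatives, with unadjusted p from 0.219 to 1 in the exact sign tests. The number of 21 nt dominated regions, 5750, was 2650 with a 21 nt share above 66.7%, 3347 with at least 100 reads, 3708 from 100 to under 500 bp and 2403 at 20 to 99 reads. The share of 21 nt reads in these regions (median over species, 41.6%) was 8.27% without the 1% of regions with most 21 nt reads. The median difference in gap over species, 10.75 bp, was -2 bp with at least 100 reads, -65.6 bp by means and -22 bp from 100 to under 500 bp. Of 54 values by species and alternative for each measure, 4 of the mCHH level, 5 of length and 7 of gap changed sign. For the mCHH level these were -0.404 (at least 100 reads), -1.49 (means) and -0.0668 (against 24 nt dominated regions) in *P. hallii*, and -0.412 (means) in *E. salsugineum*. For length they were 7 bp (share above 66.7%), 4 bp (at least 100 reads) and 0.891 bp (means) in *M. truncatula*, and 3 bp (100 to under 500 bp) and 18 bp (1 region per set of read numbers) in *E. grandis*. For gap they were 33.5 bp (share above 66.7%), 87 bp (at least 100 reads), 5 bp (no length bounds) and 109 bp (means) in *M. truncatula*, and -15 bp (at least 100 reads), -171 bp (means) and -63 bp (100 to under 500 bp) in *E. grandis*. The cause was not tested. No paired analysis was possible because each species had 1 library.

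The files limit what can be said. A region of 20 reads has a 21 nt share with a wide counting error, and reads are hits, not molecules. In *E. grandis* 595 regions met the bounds of length and reads. Coverage, and with it the error of a level, is unknown per region. The libraries ranged from 2614647 to 160311702 mapped hits, which are not sequencing depth. The part of hits or depth in the differences between species was not tested. Genes and repeats at the regions were not analysed here.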
